A study of Mus musculus with 13 samples.

Results

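Transcript levels of 7 genes that write, hold or remove trimethylation of histone H3 at lysine 27 (H3K27me3) were examined in a mouse model of Sonic Hedgehog medulloblastoma. The genes Ezh2, Ezh1, Eed, Suz12, Jarid2 and Mtf2 encode subunits of Polycomb repressive complex 2 (PRC2), and Kdm6b encodes an H3K27 demethylase. They were taken by gene symbol from a table of 53653 genes, all 7 were found, and all 7 passed the filter on low counts. The table holds RNA-seq read counts for 13 libraries of GFP+ tumour cells isolated by sorting. In every group the tumours were driven by SmoM2, a constitutively active Smoothened. The KO metastasis group (4 libraries, replicates 3, 4, 6 and 7) came from spinal metastases with SmoM2 overexpression and Kmt2d KO. The KO primary group (4 libraries, replicates 3, 4, 6 and 7) came from primary cerebellar tumours with the same alleles. The control primary group (5 libraries, replicates 3 to 7) came from primary cerebellar tumours with SmoM2 overexpression alone and is called the controls. The knockout animals, written SmoM2-Kmt2dCf/Cf in the labels, were 5 to 8 weeks old and the SmoM2 controls 6 to 16 weeks old, so age and genotype cannot be told apart. Frozen pellets held 0.1 to 3 M cells for metastases and 1 to 5 M for primary tumours. Neither the Cre or promoter that acts on Smo and Kmt2d nor the number of animals is given in these sources, so p-values measure the spread between these libraries only. The title of the library KO primary 7 ends with the letter for left while its location label reads right hemisphere.

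PRC2 is built on a catalytic methyltransferase, EZH2 or EZH1, that works only in a complex with EED and SUZ12. EZH2 is the form typical of dividing cells, including proliferating granule cell precursors of the cerebellum, and EZH1 that of non-dividing and differentiated cells. JARID2 and MTF2 join alternative forms of the complex, named PRC2.2 and PRC2.1, and help to bring it to its target genes. The H3K27me3 mark keeps developmental genes such as the Hox clusters silent, and KDM6B, also named JMJD3, takes it off. KMT2D, the enzyme removed in this model, methylates H3 lysine 4 at enhancers and works in a complex that also holds the H3K27 demethylase KDM6A.

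Sequence upstream of the start is shown for Suz12, the member whose knockout and control libraries did not overlap. It is also shown for Ezh2 and Ezh1, the alternative catalytic subunits. The sequences are from RefSeq on GRCm38.p6, read 5′ to 3′ on the gene's strand. Capitals mark TTCCCGC, a motif of the E2F factors of the cell cycle, and CCAAT, the motif of NF-Y, each searched on both strands, so that ATTGG is CCAAT on the other strand. The Suz12 stretch, chr11:79992856-79993105 on the plus strand, covers the 250 bases before the start and holds both motifs.
Suz12: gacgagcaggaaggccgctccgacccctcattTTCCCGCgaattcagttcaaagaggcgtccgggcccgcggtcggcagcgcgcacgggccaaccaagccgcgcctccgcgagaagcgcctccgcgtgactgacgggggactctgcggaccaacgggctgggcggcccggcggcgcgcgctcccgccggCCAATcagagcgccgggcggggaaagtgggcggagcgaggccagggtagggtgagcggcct
The Ezh2 stretch, chr6:47595059-47595183 on the minus strand, covers bases 153 to 29 before the start and holds CCAAT in each orientation.
Ezh2: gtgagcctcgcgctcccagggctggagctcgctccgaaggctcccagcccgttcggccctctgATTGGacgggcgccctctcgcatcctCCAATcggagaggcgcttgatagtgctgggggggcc
The Ezh1 stretch, chr11:101226464-101226713 on the minus strand, covers the 250 bases before the start and holds neither motif.
Ezh1: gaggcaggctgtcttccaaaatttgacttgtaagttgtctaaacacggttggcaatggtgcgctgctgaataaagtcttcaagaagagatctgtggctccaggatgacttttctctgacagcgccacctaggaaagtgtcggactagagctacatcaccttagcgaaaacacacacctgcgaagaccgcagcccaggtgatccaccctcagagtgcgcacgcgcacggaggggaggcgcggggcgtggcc
RefSeq windows were matched for 6 of the 7 genes, and Kdm6b is named only. Over the 250 bases before the start of 32851 windows, TTCCCGC was found in 3.82% and CCAAT in 33.8%. A second E2F motif, TTGGCGC, was found in 1.97% of all windows and in 0 of the matched members' windows. Either E2F motif was found in 5.62% of all windows. Jarid2 and Mtf2 each had 1 CCAAT match. The Suz12 window had 1 TTCCCGC at 218 to 212 bases before the start and 1 CCAAT at 61 to 57. The Ezh2 window had 3 CCAAT matches, at 90 to 86, 64 to 60 and 11 to 7 bases before the start, the last of them outside the printed stretch. GACCACCCA, the motif of the GLI factors that act at the end of the Hedgehog pathway, was found in 0.225% of all windows and in 0 of the matched members' windows. Other motifs searched are not reported here. These matches describe letters in a window only.

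The 13 libraries held 23.5 to 41.4 M counts. Counts on Kmt2d did not check the labels, since the deleted part is not given and whole-gene counts do not resolve it: Kmt2d averaged 115 ± 11.2 CPM (counts scaled to the library size adjusted by TMM, as are all levels here) in KO metastases, 116 ± 35.7 CPM in KO primary tumours and 125 ± 36.7 CPM in control primary tumours (SD, n = 4, 4 and 5). The granule cell precursor gene Atoh1 was at 371 to 861 CPM in KO metastases, 590 to 787 CPM in KO primary tumours and 309 to 425 CPM in control primary tumours, and no marker on that list was at 0. Libraries stood apart in 3 ways. Olfactory and vomeronasal receptor genes took 544 and 332 CPM of the unscaled total in KO metastasis 6 and 7, 696 CPM in KO primary 7, 1679 CPM in control primary 3 and at most 81.3 CPM elsewhere. Mitochondrial genes took 2.06% of counts in KO metastasis 3 and 0.633% to 0.876% in the other 12 libraries. Xist, the RNA of the inactive X chromosome, reached 324 to 509.5 CPM in 3 controls (replicates 5, 6 and 7) and was at most 1.02 CPM in the other 10 libraries, a group of all 8 knockout libraries and control primary 3 and 4. In sorted bulk samples, fewer cells of a type and less RNA per cell cannot be told apart.

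None of the 7 genes was called in any of the 3 comparisons by edgeR's quasi-likelihood test at a Benjamini-Hochberg adjusted p below 0.05 over 22265 genes. In KO primary tumours against controls, 0 members were called beside 2.93% of all genes, and 2 members, Eed and Suz12, had an unadjusted p below 0.05, beside 13.6% of all genes. DESeq2 called 1 member there, Suz12, beside 8.71% of the genes to which it gave an adjusted p, and limma voom with quality weights called 2, Suz12 and Ezh1, beside 14.7% of all genes. In KO metastases against KO primary tumours, 0 members were called beside 0.00449% of all genes, which is 1 gene, Mbp of myelin, named after its value was seen. Only Kdm6b, 1 member, had an unadjusted p below 0.05 there, beside 3.23% of all genes, and DESeq2 and voom called 0, beside 0.226% and 0.00898%. In KO metastases against controls, 0 members were called beside 3.08% of all genes, and 4 members, Ezh1, Eed, Suz12 and Jarid2, had an unadjusted p below 0.05, beside 14.2% of all genes. DESeq2 called 2 members there, Eed and Suz12, beside 8.82% of its genes, and voom called 2 others, Ezh1 and Jarid2, beside 17.2% of all genes. The comparisons of each knockout group with the controls share the same 5 control libraries. The median log2 change of the 7 members was -0.08 for KO primary tumours against controls, -0.01 for KO metastases against KO primary tumours and 0.24 for KO metastases against controls, beside medians of -0.05, -0.004 and -0.04 over all genes tested.

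**Figure D1:**
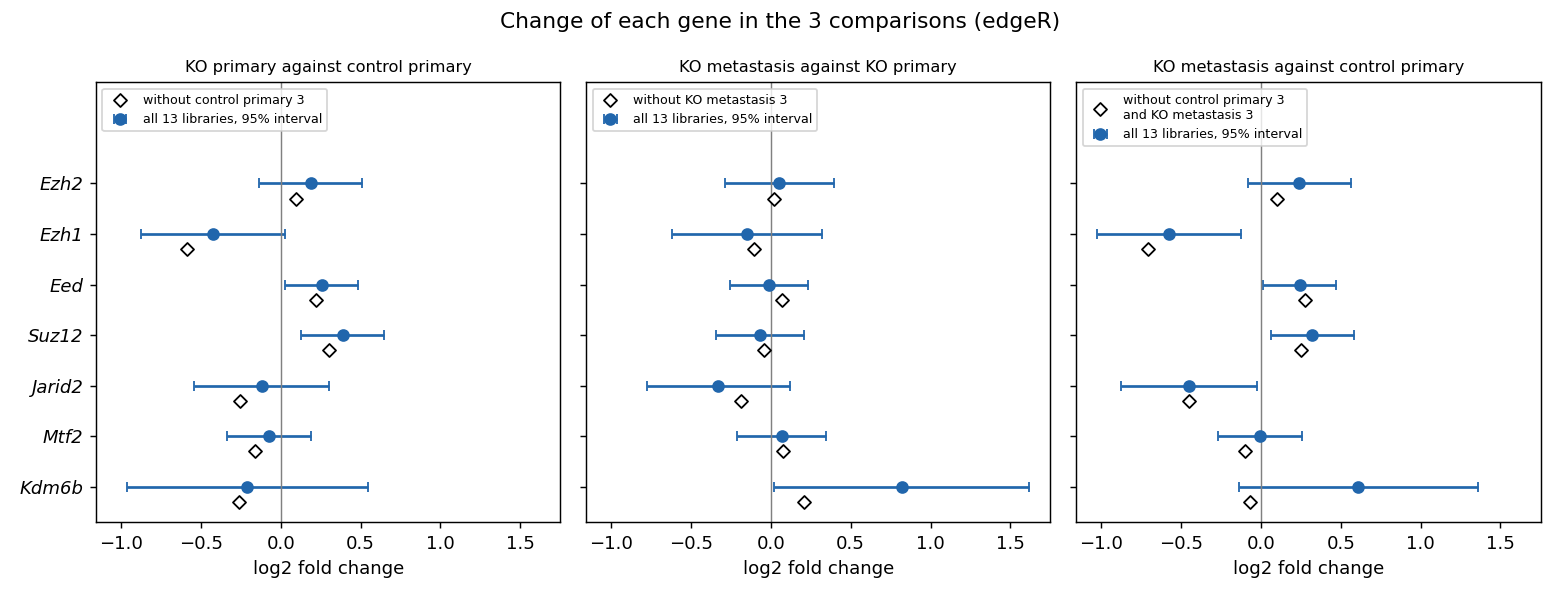
Log2 fold change of each of the 7 genes (x axis) in the 3 comparisons, from edgeR on all 13 libraries with 95% intervals (circles) and without the libraries named in each panel (diamonds). Ezh1 lies below 0 and Eed and Suz12 above 0 in both comparisons with the controls, and Kdm6b in KO metastases moves to 0.21 against KO primary tumours without KO metastasis 3.

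Per kilobase of exon, Ezh2 was the most abundant of the 7 genes in all 3 groups. Ezh2 averaged 29.6 ± 2.93 CPM per kb in KO metastases, 28.5 ± 2.19 in KO primary tumours and 25.1 ± 5.28 in control primary tumours (SD, n = 4, 4 and 5). Eed followed at 23.1 ± 1.86, 23.3 ± 1.38 and 19.5 ± 1.54 CPM per kb in the same groups, and Suz12 stood beside it at 22.3 ± 0.818, 23.4 ± 1.64 and 17.9 ± 2.47 CPM per kb. The ranges of Eed and Suz12 overlapped in both knockout groups. Mtf2 came next in the knockouts at 17.9 ± 1.19 CPM per kb in KO metastases and 17.1 ± 0.838 in KO primary tumours, and averaged 18.0 ± 2.54 in control primary tumours. Jarid2 was lower, at 9.20 ± 1.91, 11.5 ± 0.695 and 12.5 ± 3.24 CPM per kb in KO metastases, KO primary tumours and control primary tumours. Ezh1 and Kdm6b were the lowest of the 7 in every group. Ezh1 averaged 4.85 ± 0.579, 5.38 ± 0.471 and 7.22 ± 2.11 CPM per kb and Kdm6b 6.24 ± 4.56, 3.53 ± 0.591 and 4.08 ± 1.18 CPM per kb in the same order of groups. In KO primary tumours Ezh1 lay above Kdm6b in non-overlapping ranges, in KO metastases their ranges overlapped, and in control primary tumours every neighbouring pair in the order overlapped.

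**Figure D2:**
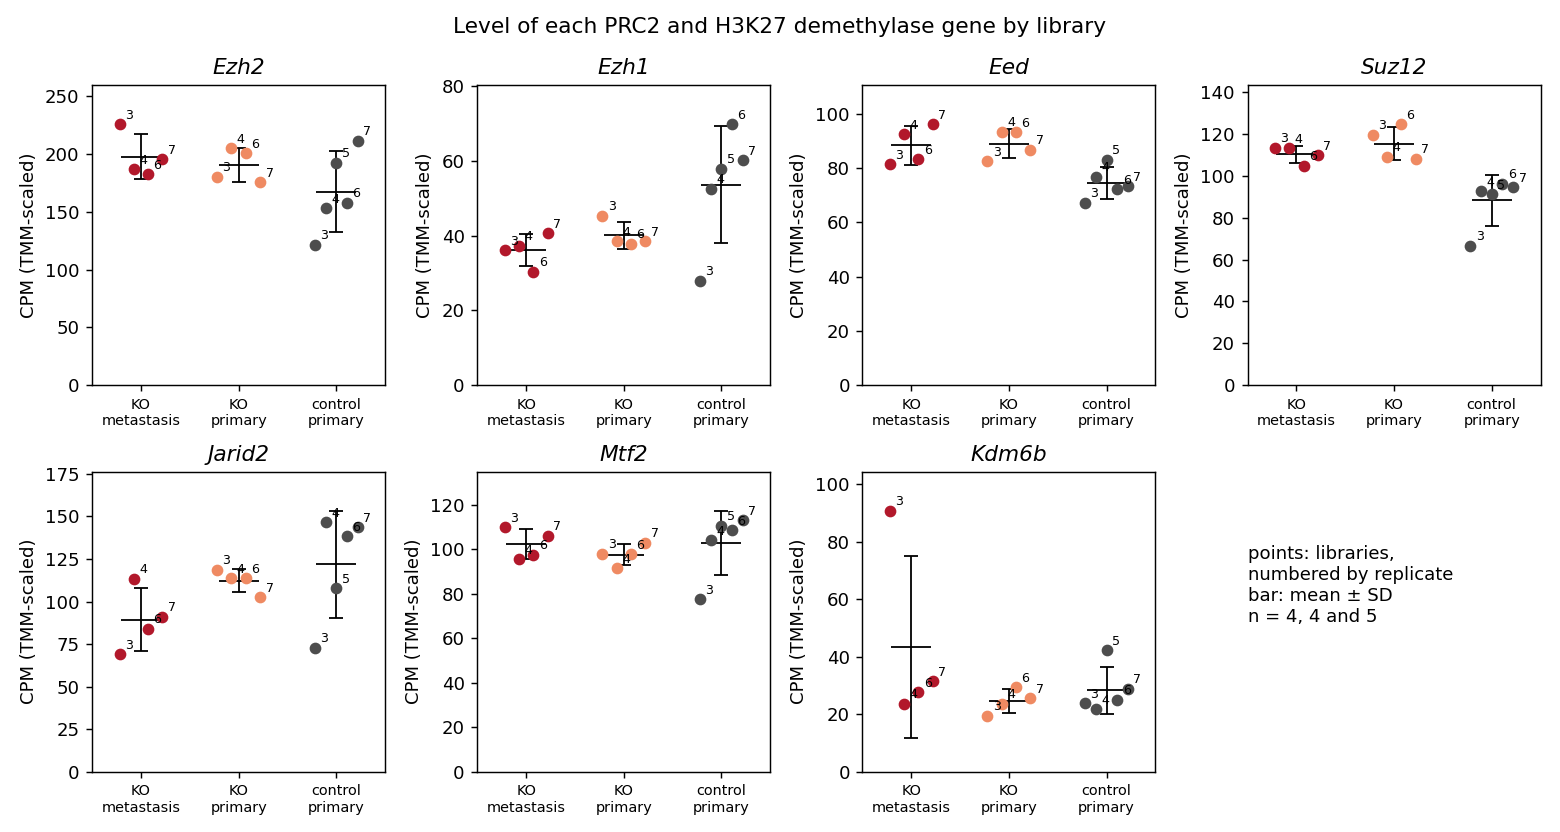
TMM-scaled CPM (y axes) of each gene in KO metastasis, KO primary and control primary libraries, each point a library numbered by replicate, with mean ± SD (n = 4, 4 and 5). Control primary 3 is the lowest of the 13 libraries for 5 of the 7 genes, and KO metastasis 3 is far above the rest for Kdm6b at 90.7 CPM.

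Ezh2 encodes the main catalytic subunit (chr6:47530139-47595341, minus strand, GRCm38, protein coding). Its levels were 226, 187, 183 and 195 CPM in KO metastases 3, 4, 6 and 7. They were 180.5, 205, 201 and 176 CPM in KO primary 3, 4, 6 and 7, against 122, 153, 193, 158 and 212 CPM in control primary 3 to 7. The 3 groups overlapped: the highest control stood above every KO primary library, and the lowest library of all was control primary 3. The log2 change was 0.19 for KO primary tumours against controls (SE 0.150, 95% interval -0.14 to 0.51, edgeR adjusted p = 0.734) and 0.24 for KO metastases against controls (SE 0.150, interval -0.08 to 0.56, edgeR adjusted p = 0.558). Between KO metastases and KO primary tumours it was 0.05 (SE 0.159, interval -0.29 to 0.39, edgeR adjusted p = 0.99974). An exon of the lincRNA gene Gm26625 on the opposite strand touches those of Ezh2. As no source used here gives the strand setting of the counting, reads from the shared bases cannot be told apart. Gm26625 held 50.38 counts per library on average.

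Ezh1 encodes the alternative catalytic subunit (chr11:101191115-101226463, minus strand, protein coding). It stood at 36.1, 37.3, 30.3 and 40.7 CPM in KO metastases 3, 4, 6 and 7 and at 45.3, 38.5, 37.9 and 38.5 CPM in KO primary 3, 4, 6 and 7, against 28.0, 52.6, 57.9, 69.9 and 60.1 CPM in control primary 3 to 7. All 8 knockout libraries were below control primary 4 to 7 and above control primary 3. Ezh1 thus averaged 36.1 ± 4.31 CPM in KO metastases (n = 4) and 40.1 ± 3.50 CPM in KO primary tumours (n = 4), against 53.7 ± 15.7 CPM in control primary tumours (n = 5), or 60.1 ± 7.24 CPM in the 4 controls without control primary 3. The log2 change was -0.42 for KO primary tumours against controls (SE 0.209, interval -0.87 to 0.03, edgeR adjusted p = 0.412). For KO metastases against controls it was -0.57 (SE 0.210, interval -1.02 to -0.12, edgeR adjusted p = 0.202), and for KO metastases against KO primary tumours -0.15 (SE 0.219, interval -0.62 to 0.32, edgeR adjusted p = 0.99974).

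The Ezh1 values depended on which controls were in the fit. Without control primary 3, Ezh1 was lower by edgeR in KO primary tumours (log2 -0.58, SE 0.131, adjusted p = 0.0208) and in KO metastases (log2 -0.73, SE 0.131, adjusted p = 0.00594) than in control primary tumours. With control primary 5, 6 and 7, the controls with Xist counts, left out, control primary 3 and 4 remained and the log2 change was 0.01 for KO primary tumours (edgeR adjusted p = 0.994) and -0.11 for KO metastases (edgeR adjusted p = 0.950). Over the 18 alternatives the adjusted p ranged between 0.0136 and 0.994 for KO primary tumours against controls and between 0.00594 and 0.950 for KO metastases against controls. Many genes of neuronal differentiation fell in both knockout groups. Of 16 such genes, 11 were called lower and 0 higher in KO primary tumours against controls, beside 2.93% of all genes called in either direction. Their median log2 change was -1.09 (-0.05 over all genes). In KO metastases against controls, 8 of the 16 were called lower and 0 higher, beside 3.08% of all genes, with a median of -0.96 (-0.04 over all genes). Neurod1, a transcription factor of differentiating granule neurons, fell by 1.81 on the log2 scale in KO primary tumours (SE 0.276, edgeR adjusted p = 0.00286) and fell by 1.67 in KO metastases (SE 0.274, edgeR adjusted p = 0.00446). The RNA-binding protein gene Elavl4 fell by 1.17 in KO primary tumours (SE 0.134, edgeR adjusted p = 0.000457). Summed over the 16 genes, the level was 1806 to 2857 CPM in KO metastases and 1703 to 1975 CPM in KO primary tumours, against 3159 to 5083 CPM in control primary tumours, where control primary 3 was the lowest. The part of these genes in the Ezh1 values was not tested.

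Within each library, the ratio of Ezh2 to Ezh1 counts per kilobase does not depend on how libraries are scaled. It was 6.98, 5.58, 6.70 and 5.35 in KO metastases 3, 4, 6 and 7 and 4.44, 5.94, 5.91 and 5.08 in KO primary 3, 4, 6 and 7. In control primary 3 to 7 it was 4.85, 3.25, 3.71, 2.52 and 3.92. All 4 KO metastases exceeded all 5 controls, while KO primary 3 lay below control primary 3. How often ratios of other gene pairs separate in this way was not counted. On the log2 scale the difference of means was 0.78 for KO metastases against controls (pooled SD 0.292), 0.57 for KO primary tumours against controls (pooled SD 0.295) and 0.20 for KO metastases against KO primary tumours (pooled SD 0.195). These differences are descriptions without a test. Leaving out each library in turn kept the first between 0.65 and 0.89 and the second between 0.45 and 0.68.

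**Figure D3:**
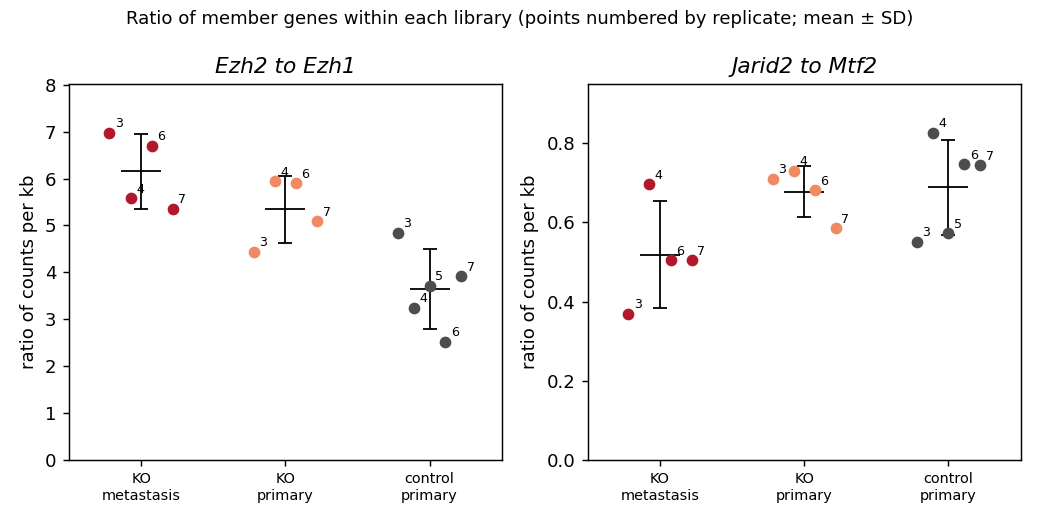
Ratios of counts per kilobase within each library for Ezh2 to Ezh1 (left y axis) and Jarid2 to Mtf2 (right y axis), each point a library numbered by replicate, with mean ± SD in KO metastases (n = 4), KO primary tumours (n = 4) and control primary tumours (n = 5). The Ezh2 to Ezh1 ratio averages 6.15 in KO metastases, 5.34 in KO primary tumours and 3.65 in control primary tumours, and control primary 3 at 4.85 is the highest control.

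Suz12, the scaffold that holds the catalytic core and binds the accessory subunits (chr11:79993106-80034123, plus strand, protein coding), was the member whose libraries separated. It stood at 113, 113, 105 and 109.8 CPM in KO metastases 3, 4, 6 and 7 and at 119.8, 109, 125 and 108 CPM in KO primary 3, 4, 6 and 7. The controls were at 66.7, 92.6, 91.4, 96.3 and 94.6 CPM in control primary 3 to 7, so every knockout library exceeded every control. Such separation upwards was seen for 1 of the 7 members and for 3.57% of all genes in KO primary tumours against controls, and for the same 1 member and 2.81% of all genes in KO metastases against controls. No member separated in KO metastases against KO primary tumours, where 1.72% of all genes did in either direction. The mean was 110.4 ± 4.05 CPM in KO metastases and 116 ± 8.10 CPM in KO primary tumours, against 88.3 ± 12.2 CPM in control primary tumours. The log2 change was 0.39 for KO primary tumours against controls (SE 0.121, interval 0.13 to 0.65, edgeR adjusted p = 0.122), a fold of 1.31. It was 0.32 for KO metastases against controls (SE 0.121, interval 0.06 to 0.58, edgeR adjusted p = 0.217), a fold of 1.25, and -0.07 for KO metastases against KO primary tumours (SE 0.128, interval -0.34 to 0.21, edgeR adjusted p = 0.99974). Neither comparison with the controls passed the threshold by edgeR. DESeq2 gave 0.36 (SE 0.102, adjusted p = 0.00754) for KO primary and 0.33 (SE 0.102, adjusted p = 0.0200) for KO metastases against controls. Over the 18 alternatives the adjusted p ranged between 0.00754 and 0.576 for KO primary and between 0.0200 and 0.646 for KO metastases against controls, and the log2 change between 0.30 and 0.57 and between 0.22 and 0.54. Exons of the lincRNA gene Gm26563, with 216.77 counts per library on average, touch those of Suz12 on the opposite strand. Reads from the shared bases cannot be told apart.

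Eed, which binds H3K27me3 and lets the mark stimulate its own spread (chr7:89954654-89980983, minus strand, protein coding), was at 81.5, 92.5, 83.4 and 96.3 CPM in KO metastases 3, 4, 6 and 7. KO primary libraries held 82.6, 93.4, 93.4 and 86.9 CPM (replicates 3, 4, 6 and 7), against 67.3, 76.9, 83.2, 72.2 and 73.4 CPM in control primary 3 to 7. Control primary 5 reached the lower knockout libraries, and the other 4 controls lay below all 8 of them. For Eed the log2 change was 0.26 for KO primary tumours against controls (SE 0.106, interval 0.03 to 0.48, edgeR adjusted p = 0.284) and 0.25 for KO metastases against controls (SE 0.106, interval 0.02 to 0.47, edgeR adjusted p = 0.304). DESeq2 gave 0.25 for the second (adjusted p = 0.0271), where the adjusted p ranged between 0.0271 and 0.820 over 18 alternatives. Between KO metastases and KO primary tumours the log2 change was -0.01 (SE 0.112, interval -0.25 to 0.23, edgeR adjusted p = 0.99974).

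Genes of the cell cycle, whose transcripts are typical of dividing precursors, were read beside Eed and Suz12. Of 25 genes of G1/S and DNA replication, 24 had a positive log2 change in KO primary tumours against controls, with a median of 0.33 (-0.05 over all genes). By edgeR 0 of them were called and 13 had an unadjusted p below 0.05, beside 13.6% of all genes. DESeq2 called 2 of the 25 and voom 7, beside 8.71% of the genes given an adjusted p and 14.7% of all genes. The replication licensing factor gene Cdt1 had the smallest p of that list there, with a change of 0.52 on the log2 scale (SE 0.137, edgeR adjusted p = 0.0615). The 25 genes summed to 4803 to 7100 CPM in KO metastases and 5928 to 6968 CPM in KO primary tumours, against 4283 to 5952 CPM in control primary tumours. Of 21 genes of G2/M and mitosis, 20 had a positive change and 0 were called by edgeR in KO primary tumours against controls, with 2 at an unadjusted p below 0.05, 1 called by DESeq2 and 2 by voom. Ezh2 itself had a log2 change of 0.19 in the same comparison. The part of the cell cycle genes in the Suz12 and Eed values was not tested.

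Jarid2, the subunit that defines PRC2.2 and can recruit the complex to nucleosomes ubiquitinated on H2A (chr13:44729474-44921643, plus strand, protein coding), had a wide range in the controls. It was at 69.0, 113, 84.0 and 91.0 CPM in KO metastases 3, 4, 6 and 7 and at 119, 114, 114 and 103 CPM in KO primary 3, 4, 6 and 7, against 72.9, 147, 108, 138 and 144 CPM in control primary 3 to 7. Every KO metastasis lay below control primary 4, 6 and 7, while control primary 3 was lower than 3 of the 4 metastases. On the log2 scale Jarid2 differed by -0.45 for KO metastases against controls (SE 0.198, interval -0.87 to -0.02, edgeR adjusted p = 0.320), -0.33 for KO metastases against KO primary tumours (SE 0.207, interval -0.77 to 0.12, edgeR adjusted p = 0.99974) and -0.12 for KO primary tumours against controls (SE 0.197, interval -0.54 to 0.30, edgeR adjusted p = 0.941). Without control primary 3 the KO metastases were lower than the controls by edgeR (log2 -0.58, adjusted p = 0.0361), and over 18 alternatives that adjusted p ranged between 0.00813 and 0.936. KO metastasis 3 was the lowest library of all for Jarid2. Without it the log2 change was -0.35 for KO metastases against controls (edgeR adjusted p = 0.839) and -0.18 for KO metastases against KO primary tumours.

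Mtf2, a Polycomb-like subunit of PRC2.1 that binds unmethylated CpG-rich DNA (chr5:108065674-108109004, plus strand, protein coding), was at 109.8, 95.6, 97.5 and 106 CPM in KO metastases 3, 4, 6 and 7. KO primary libraries held 98.0, 91.3, 97.7 and 103 CPM (replicates 3, 4, 6 and 7), against 77.5, 104, 110.5, 108 and 113 CPM in control primary 3 to 7. All 8 knockout libraries lay above control primary 3 and below control primary 5 and 7. On the log2 scale Mtf2 differed by -0.08 for KO primary tumours against controls (SE 0.123, interval -0.34 to 0.19, edgeR adjusted p = 0.940), -0.01 for KO metastases against controls (SE 0.122, interval -0.27 to 0.26, edgeR adjusted p = 0.992) and 0.07 for KO metastases against KO primary tumours (SE 0.129, interval -0.21 to 0.35, edgeR adjusted p = 0.99974). Exons of Tmed5, a protein-coding gene with 2213.77 counts per library on average, touch those of Mtf2 on the opposite strand. Reads from the shared bases cannot be told apart. The ratio of Jarid2 to Mtf2 per kilobase was 0.369, 0.697, 0.505 and 0.504 in KO metastases 3, 4, 6 and 7. It was 0.7103, 0.730, 0.682 and 0.585 in KO primary 3, 4, 6 and 7, against 0.551, 0.827, 0.572, 0.748 and 0.745 in control primary 3 to 7. The groups overlapped in all 3 comparisons, and the log2 difference of means was -0.43 for KO metastases against controls, -0.42 for KO metastases against KO primary tumours and -0.01 for KO primary tumours against controls.

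Kdm6b, the demethylase that opposes PRC2 and is induced rapidly by many signals (chr11:69398508-69413675, minus strand, protein coding), was high in a single library. It stood at 90.7, 23.6, 27.7 and 31.4 CPM in KO metastases 3, 4, 6 and 7 and at 19.5, 23.7, 29.4 and 25.6 CPM in KO primary 3, 4, 6 and 7, against 23.8, 21.8, 42.3, 25.0 and 29.0 CPM in control primary 3 to 7. KO metastasis 3 exceeded all others, and the remaining 12 libraries overlapped between groups. The Kdm6b log2 change was 0.82 for KO metastases against KO primary tumours (SE 0.372, interval 0.02 to 1.62, edgeR adjusted p = 0.99974), a fold of 1.77. Without KO metastasis 3 it was 0.21 (SE 0.237), and the metastases averaged 27.6 ± 3.91 CPM (n = 3) beside 24.6 ± 4.11 CPM in KO primary tumours (n = 4). For KO metastases against controls it was 0.61 (SE 0.349, interval -0.14 to 1.36, edgeR adjusted p = 0.496) with all libraries and -0.04 without KO metastasis 3. For KO primary tumours against controls it was -0.21 (SE 0.352, interval -0.96 to 0.55, edgeR adjusted p = 0.943). Biological variation of Kdm6b between libraries, as edgeR's coefficient, was 36.9%, at percentile 46.3 of all genes tested and so near the middle. It was 13.5% for Eed and 14.7% for Suz12, which were among the steadiest 0.296% and 1.96% of all genes. Exons of the antisense gene Kdm6bos, with 6.31 counts per library on average, touch those of Kdm6b, and reads from the shared bases cannot be told apart.

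The library with the high Kdm6b also had the highest mitochondrial share, 2.06%, and its part in the Kdm6b value was not tested. Immediate early genes, which cells induce within minutes of a stimulus or of dissociation, were in most cases higher in KO metastases than in controls. Of 14 such genes, 9 were called higher and 0 lower in KO metastases against controls, beside 3.08% of all genes called in either direction. In KO primary tumours against controls, 1 was called higher and 1 lower, beside 2.93% of all genes. For KO metastases against controls the median log2 change of the 14 was 1.78 (-0.04 over all genes), and Fos rose by 3.26 (SE 0.565, edgeR adjusted p = 0.00616). Their summed level was 3530, 3212, 3734 and 2620 CPM in KO metastases 3, 4, 6 and 7, 983 to 2899 CPM in KO primary tumours and 720 to 1727 CPM in control primary tumours. The part of these genes in the Kdm6b values was not tested. Myelin and immune markers also varied among metastases: the 9 markers of mature oligodendrocytes summed to 173 to 1944 CPM in KO metastases, 69.0 to 99.7 CPM in KO primary tumours, where Opalin was at 0, and 145 to 404 CPM in control primary tumours. The 12 markers of microglia and macrophages, cells in which Kdm6b is inducible, summed to 11.9 to 202 CPM in KO metastases, 3.68 to 15.5 CPM in KO primary tumours and 9.07 to 72.5 CPM in control primary tumours. In KO metastases 3, 4, 6 and 7 the oligodendrocyte sums were 173, 316, 1944 and 827 CPM and the microglia and macrophage sums 39.0, 11.9, 202 and 157 CPM. The part of these cells in the values of the 7 genes was not tested.

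**Figure D4:**
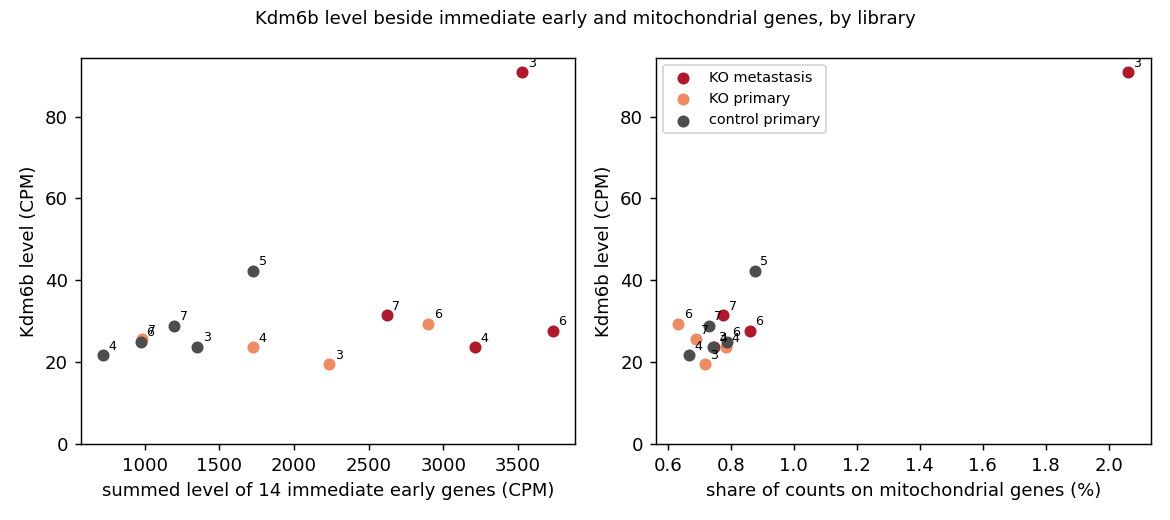
Kdm6b level in TMM-scaled CPM (y axes) beside the summed level of 14 immediate early genes in CPM (left x axis) and the mitochondrial share of counts in percent (right x axis), each point a library numbered by replicate. KO metastasis 3 is the highest point of both panels at 90.7 CPM, and the other 12 libraries lie between 19.5 and 42.3 CPM.

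The 2 relatives of Kdm6b that were listed beside it lie on the sex chromosomes. Kdm6a, on the X and a partner of KMT2D, averaged 49.9 ± 7.29 CPM in KO metastases and 50.8 ± 10.9 CPM in KO primary tumours, against 70.6 ± 32.1 CPM in control primary tumours. Uty, its Y-linked relative, averaged 43.1 ± 9.13 CPM in KO metastases and 48.8 ± 2.93 CPM in KO primary tumours, against 13.4 ± 21.4 CPM in control primary tumours. By edgeR 0 of these 2 genes were called in any comparison, 0 had an unadjusted p below 0.05 and DESeq2 called 0. In each comparison with the controls voom called both, Kdm6a lower and Uty higher. Beside these calls stood 14.7% of all genes for KO primary tumours and 17.2% for KO metastases. In KO metastases against KO primary tumours voom called 0 of the 2. Kdm6a escapes X inactivation. In control primary 5, 6 and 7, the controls with Xist counts, Kdm6a was at 76.9, 108 and 81.2 CPM and Uty at 0, 0 and 0.027 CPM. In control primary 3 and 4, which had little Xist, Kdm6a was at 19.8 and 67.2 CPM and Uty at 17.8 and 49.1 CPM. The part of sex in the group means of these genes was not tested.

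Around the 7 genes, 38 others of the Polycomb system were taken as lists, and 0 were called by edgeR in any comparison. In KO primary tumours against controls 6 of the 38 had an unadjusted p below 0.05, DESeq2 called 2 and voom 7. Beside these stood 13.6% of all genes, 8.71% of the genes to which DESeq2 gave an adjusted p, and 14.7% of all genes. In KO metastases against controls the counts were 5, 2 and 5, beside 14.2%, 8.82% and 17.2%, and in KO metastases against KO primary tumours 0, 0 and 0. Of 7 further PRC2 subunits, 6 had a positive log2 change in KO primary tumours against controls, with a median of 0.21 (-0.05 over all genes). Phf19, a Polycomb-like subunit related to Mtf2, averaged 7.56 ± 2.63 CPM in KO metastases and 8.72 ± 0.692 CPM in KO primary tumours, against 5.33 ± 1.60 CPM in control primary tumours (log2 0.71 for KO primary tumours against controls, SE 0.266, edgeR adjusted p = 0.214). Phf1, the Polycomb-like paralogue, averaged 9.86 ± 2.61 CPM in KO metastases and 9.93 ± 1.25 CPM in KO primary tumours, against 14.6 ± 3.25 CPM in control primary tumours (log2 -0.55 for KO primary tumours against controls, SE 0.224, edgeR adjusted p = 0.263). These paralogues had changes of opposite sign. Neither passed by edgeR or DESeq2, and voom called Phf19.

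Of 24 genes of PRC1, the complex that ubiquitinates H2A and reads H3K27me3, 0 were called by edgeR, and 15, 7 and 13 had a positive change in KO primary tumours against controls, KO metastases against KO primary tumours and KO metastases against controls. The chromodomain gene Cbx6 had the smallest adjusted p of the 38, at log2 -0.56 for KO metastases against controls (SE 0.149, edgeR adjusted p = 0.0627) and -0.43 for KO primary tumours against controls (SE 0.149, edgeR adjusted p = 0.164). Cbx6 averaged 84.2 ± 8.52 CPM in KO metastases and 91.8 ± 12.5 CPM in KO primary tumours, against 124 ± 20.3 CPM in control primary tumours. DESeq2 and voom both called Cbx6 lower in each comparison with the controls. Of the 24 PRC1 genes, DESeq2 called 2 and voom 4 in KO primary tumours against controls, beside 8.71% and 14.7% over all genes. In KO metastases against controls they called 2 and 2, beside 8.82% and 17.2%. Pcgf5, a subunit of variant PRC1, had a change of 0.51 on the log2 scale in KO metastases against controls (SE 0.177, edgeR adjusted p = 0.170). DESeq2 called Pcgf5 there, and voom called it in KO primary tumours against controls. Of 5 genes for H3K27 acetylation and H2A deubiquitination, 0 were called by edgeR, DESeq2 or voom and 0 had an unadjusted p below 0.05. The acetyltransferase gene Crebbp, whose product acetylates the same lysine, had a change of 0.32 on the log2 scale in KO metastases against controls (SE 0.166, edgeR adjusted p = 0.428).

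**Figure D5:**
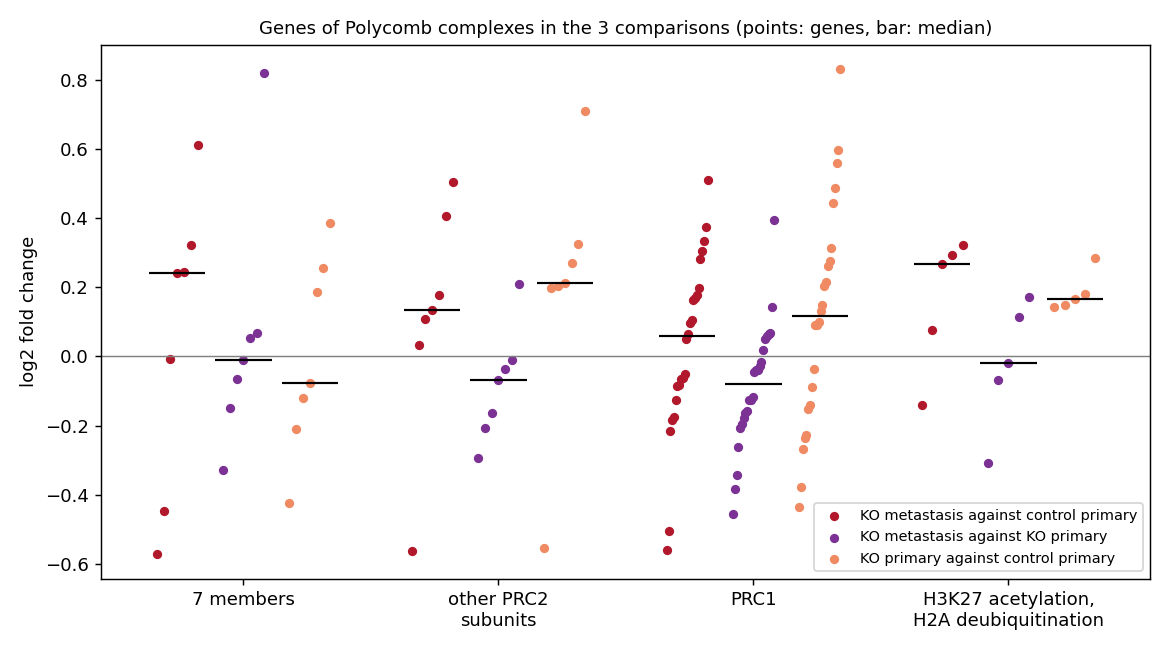
Log2 fold change (y axis) of the 7 members, 7 other PRC2 subunits, 24 PRC1 genes and 5 genes of H3K27 acetylation and H2A deubiquitination, each point a gene and each bar the median, in the 3 comparisons shown by colour. The medians lie within 0.27 of 0, and no gene shown was called by edgeR.

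Genes kept silent by Polycomb in most tissues were listed as 2 INK4 locus genes and 39 Hox genes, of which 8 of the 41 passed the filter on low counts. Hoxb4, a hindbrain and spinal position gene, had 1608 counts over the KO metastases, 157 over the KO primary tumours and 1 over the control primary tumours. Hoxa2 had 1409, 284 and 3 in the same order. Libraries differed widely: Hoxb4 was at 0.115 to 32.4 CPM in KO metastases and 0.379 to 1.72 CPM in KO primary tumours. For Hoxa2 the ranges were 5.13 to 13.2 CPM and 0 to 4.71 CPM. These 2 genes entered the test only through knockout libraries, so they say nothing of the direction of the list. Of the 41 genes, 7 had no counts in KO metastases, 9 none in KO primary tumours and 14 none in control primary tumours. Summed, the list was at 24.3 to 95.1 CPM in KO metastases, 10.3 to 18.3 CPM in KO primary tumours and 9.27 to 33.1 CPM in control primary tumours. This sum adds the 2 INK4 genes, whose levels follow, to the Hox genes, so it shows neither part alone. The cell cycle inhibitor gene Cdkn2a, a classical PRC2 target, averaged 1.63 ± 0.558 CPM in KO metastases and 1.09 ± 0.478 CPM in KO primary tumours, against 3.50 ± 2.67 CPM in control primary tumours (edgeR adjusted p = 0.363 and 0.130 against the controls). Its neighbour Cdkn2b averaged 4.88 ± 1.89 CPM in KO metastases and 4.36 ± 1.51 CPM in KO primary tumours, against 9.72 ± 3.02 CPM in control primary tumours (edgeR adjusted p = 0.137 and 0.0804). EdgeR thus called neither gene, while DESeq2 and voom called both lower in KO primary tumours than in controls, and DESeq2 called Cdkn2b lower in KO metastases than in controls.

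Across the 13 libraries, the genes whose log2 CPM was most like that of Ezh2, among 11172 genes of at least 5 CPM on average, were Sltm, Alkbh1, Jmy, Plscr3 and Eif3a. For Sltm the Pearson r was 0.949 and the Spearman rho 0.945, and r was 0.925 over 11 libraries without control primary 3 and KO metastasis 3; for Alkbh1 the values were 0.930, 0.813 and 0.788. For Ezh1 the genes were Psd, Zer1, Brpf1, Kcnb2 and Ap1g2, led by Psd with r 0.932, rho 0.940 and 0.921 without those libraries. For Kdm6b they included Nlgn2, Usf2, Mex3a and mt-Nd4. Nlgn2 had r 0.950 and rho 0.758, while mt-Nd4 had r 0.923, rho 0.5 and 0.607 without those libraries. Within the set, Ezh2 and Suz12 had r 0.744 and 0.321 without those libraries, whereas Ezh1 and Jarid2 had 0.779 and 0.754. These values describe 13 points that share library, group and depth.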

How the data were processed

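The deposited table holds raw counts per gene symbol for 13 libraries. The submitters' processing notes name the build mm10 and the tools HTSeq 0.6.1, STAR 2.4 and DESeq2; no source used here gives the role of each, the annotation or the strand setting. Total counts were 23.5 to 41.4 M, and precision is limited by the number of libraries.

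Groups follow the genotype and tissue labels. All libraries were fitted together in edgeR 4.0.16 (R 4.3.3) after filterByExpr (minimum count 10, minimum total 15) and TMM scaling, with quasi-likelihood tests and Benjamini-Hochberg adjustment over 22265 genes. Levels are TMM-scaled CPM with SD. Lengths and coordinates are exon unions of GENCODE M21 on GRCm38. Alternatives were DESeq2 1.42.0, limma 3.58.1 voom with quality weights, other scaling or filtering, 2 groups only, a replicate block and leaving out libraries. The tests were checked on simulated data and missed most of the 2-fold changes put in, so a gene not called may still differ. The genes changed there were not limited to the members, so the share missed does not describe the members. Biological variation of the members lay between percentile 0.296 (Eed) and 46.3 (Kdm6b) of all genes tested. For a member, the 95% interval of its log2 change is the measure to read.

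The members and lists were chosen with earlier results of these data known. The rule names all members, up to 4 called genes of a list or otherwise 2 with the smallest p, and the 5 most similar genes to Ezh2, Ezh1 and Kdm6b; some genes it takes are only counted or are not reported here.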

Additional observations from a re-analysis of the deposited data

Results flagged for a closer look

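In 27 groups of libraries examined for a single value far from the rest, 4 stood out, and chance gives about 1 in 20. Kdm6b in KO metastasis 3 was at 90.7 CPM, far above the other 3 KO metastases at 23.6 to 31.4 CPM. Ezh1 in KO primary 3 was at 45.3 CPM, above the other 3 KO primary libraries at 37.9 to 38.5 CPM. Suz12 in control primary 3 was at 66.7 CPM, below the other 4 controls at 91.4 to 96.3 CPM. Mtf2 in control primary 3 was at 77.5 CPM, below the other 4 controls at 104.1 to 113 CPM. Control primary 3 was also the library with the most olfactory and vomeronasal receptor counts, 1679 CPM, and its part in these values was not tested.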

How the results depend on the processing

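Of the alternatives for single members, 323 values kept direction and side of the threshold, 27 changed sign and 14 passed the threshold. All 68 ratio values moved by less than the pooled SD between libraries. Leaving out 1 library cannot move a group mean by that much, so those values are no test of the ratios. Members called were 1 and 2 with DESeq2 and 2 and 2 with voom (KO primary, then KO metastasis, against control primary). Beside these stood 8.71% and 8.82% of the genes given an adjusted p by DESeq2, and 14.7% and 17.2% of all genes by voom. Without the 4 high-receptor libraries, 1 and 1 were called, beside 1427 and 1274 of 20214 genes. The main fit called 653 and 685 of 22265 genes. Without control primary 3 and KO metastasis 3 together, an alternative chosen after seeing the data, 1 and 1 were called. Leaving out 1 library gave 0 to 1, 0 to 0 (KO metastasis against KO primary) and 0 to 2 members. Genes called in those fits were 277 to 1032, 0 to 1 and 369 to 1199. Without control primary 3, the fit called 1032 genes for KO primary against control primary.

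Genes called for the 3 comparisons (KO primary against controls, KO metastases against KO primary, KO metastases against controls) were 1653, 39 and 1674 with DESeq2, 3267, 2 and 3822 with voom, and 1427, 5 and 1274 without the high-receptor libraries. Voom split them as 1636 higher and 1631 lower, and 2318 higher and 1504 lower, against 257 and 396, and 235 and 450, in edgeR. Genes called were 138 and 100 against the 2 controls without Xist counts, 1373 for KO primary against control primary without both libraries, and, for KO metastasis against KO primary, 2 without the filter and 0 in a fit of those groups alone. Leaving out 1 library gave 277 to 1032, 0 to 1 and 369 to 1199.

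Log2 changes near 0 turned sign. For Eed in KO metastasis against KO primary they were 0.022 with RLE scaling, 0.00012 without the filter, 0.021 with DESeq2, 0.039 in 2 groups alone and 0.061 without both libraries, and -0.058 to 0.069 with 1 library left out. For Mtf2 in KO metastasis against control primary they were 0.0015 with RLE, 0.0042 without the filter, 0.24 against the 2 controls without Xist counts and -0.087 to 0.044 with 1 left out. Ezh2 in KO metastasis against KO primary was -0.030 with voom. Against those 2 controls, KO primary gave 0.0098 for Ezh1, 0.046 for Jarid2, 0.14 for Mtf2 and 0.17 for Kdm6b. Kdm6b in KO metastasis against control primary was -0.066 without both libraries and -0.041 to 0.83 with 1 left out. The causes were not tested.

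The labels do not say whether same-numbered KO metastasis and KO primary libraries share an animal. Their deviations correlated at 0.417, 0.514, 0.0684 and 0.732 (replicates 3, 4, 6 and 7), and not every library correlated best with its own number, so pairing was not assumed. With the replicate number as a block, 480, 10 and 411 genes and 0 members were called, Eed was 0.038 and Mtf2 0.020 in the comparisons above, and the ratio differences of Ezh2 to Ezh1 were 0.59, 0.20 and 0.79.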
